A study of Mus musculus with 6 samples.

Results

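The genes described here are 33 p53 target genes and p53 partners, among them the 3 GADD45 genes, out of 55487 genes in the deposited expression table. They were chosen by symbol, and p53 targets of the CDK inhibitor, BCL2 and TNF receptor families were kept apart from them. RNA-seq had been done on RM-1 cells, a transplantable mouse prostate cancer line made by introducing oncogenes into prostate tissue. Of the 6 libraries, 3 came from cells given a lentivirus that overexpresses Bhlhe22, a neuronal transcription factor of the basic helix-loop-helix class, and 3 from cells given an empty vector lentivirus. All 6 therefore carried a lentivirus. The labels do not give the promoter that drives Bhlhe22, whether the cells were pools or clones, the p53 status of the line, or whether replicates were separate cultures, so p-values measure only the spread between these samples, and it may be technical.

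The p53 protein is a transcription factor that is stabilised after DNA damage and other stresses. It raises genes that halt the cell cycle, repair DNA, change metabolism or start cell death, and it raises its own inhibitor Mdm2, which closes a feedback loop. Many of its targets, GADD45 and sestrin genes among them, are also raised without p53, for example by ATF4 and CHOP in the integrated stress response. In prostate cancer, loss of p53 function is common in advanced and metastatic disease.

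The libraries held 15464709, 19548474 and 25129552 counts in Bhlhe22 cells and 17950347, 20446128 and 21223227 in vector cells. Bhlhe22 itself was at 571, 763 and 716 CPM (read counts relative to library size, scaled by TMM) in the Bhlhe22 libraries and had 0 counts in each vector library. Of 12 epithelial and prostate markers, Krt5, Pbsn and Hoxb13 were among those with 0 counts in all 6 libraries, and the summed level of the list was 1320 to 1570 CPM in Bhlhe22 cells and 1530 to 1610 CPM in vector cells. Within it Krt8 fell by 0.47 on the log2 scale (adjusted p 0.0047) and Krt19 rose by 0.40 (adjusted p 0.015), and the Krt19 call ended without vector replicate 1, 2 or 3 (0.065, 0.074 and 0.063). The 10 leukocyte and endothelial markers summed to 47.8 to 55.3 CPM in Bhlhe22 cells and 41.5 to 47.4 CPM in vector cells, nearly all of it Cd68, and Cd3e, Adgre1, Lyz2 and Itgam were among those with 0 counts. The 10 mesenchymal markers summed to 2240 to 2300 CPM in Bhlhe22 cells and 2640 to 2750 CPM in vector cells. Of these, Vim fell by 0.33 (adjusted p 0.023) and Col1a2, at under 1 CPM in each library, by 2.12 (adjusted p 0.0097), and Pdgfrb rose by 0.53 (adjusted p 0.015). The Vim call was kept in 1, the Pdgfrb call in 2 and the Col1a2 call in 4 of the 6 fits that left out a library. The part of these markers in the results was not tested. Bhlhe22 replicate 1 stood apart. It lay outside the range of the other Bhlhe22 libraries in 27 of the 33 genes, against 19 to 25 genes for each of the other 5 libraries within its own group, and its median distance was 0.207 on the log2 scale, against 0.0727 to 0.145. Its deviation ran with gene length, with a Spearman coefficient of -0.569 against merged exon length over the 33 genes and of -0.475 over 14637 genes, so long genes tended to be low in it. The other libraries of the group ran the other way, with coefficients over the 33 genes of 0.383 for Bhlhe22 replicate 2 and 0.603 for Bhlhe22 replicate 3, and of 0.334 and 0.408 over all 14637 genes. In vector libraries the coefficients over the 33 genes were -0.13, 0.384 and -0.294. Each deviation is from the other libraries of the same group, so a low value in 1 library makes the others high. Results that change without Bhlhe22 replicate 1 are given below, and the part of length in them was not tested. In bulk RNA, fewer cells with a transcript and less transcript per cell cannot be told apart.

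All 33 genes passed the filter on low counts, and 6 were higher and 5 lower in Bhlhe22 than in vector cells at an adjusted p below 0.05 (edgeR quasi-likelihood test, Benjamini-Hochberg adjustment over 14663 genes). The 11 called genes are 33.3% of the 33, against 19.6% of all genes tested. Higher calls made up 18.2% of the 33 and 10.4% of all genes, and lower calls 15.2% of the 33 and 9.28% of all genes. The groups did not overlap in 18 of the 33 genes, or 54.5%, against 40.8% of all genes. The median log2 fold change (Bhlhe22 over vector cells throughout) of the 33 genes was 0.06, against 0.010 over all genes tested, and the median size of the change without its sign was 0.26 against 0.23. The genes thus did not move in 1 direction: 20 had a positive and 13 a negative log2 fold change. Over all genes, 7515 of the 14663 tested had a positive one. Gadd45a, Tigar, Rrm2b, Plk2, Plk3 and Btg1 rose in Bhlhe22 cells, and Pidd1, Pml, Sesn1, Gadd45b and Ccng1 fell. Changes of at least 2-fold were found for Gadd45a and Pidd1. The 22 genes that did not pass had log2 fold changes of -0.42 to 0.35, and in 7 of them the groups did not overlap. The matching share over all genes that did not pass was not taken, so the 7 are not a result about these genes.

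**Figure D1:**
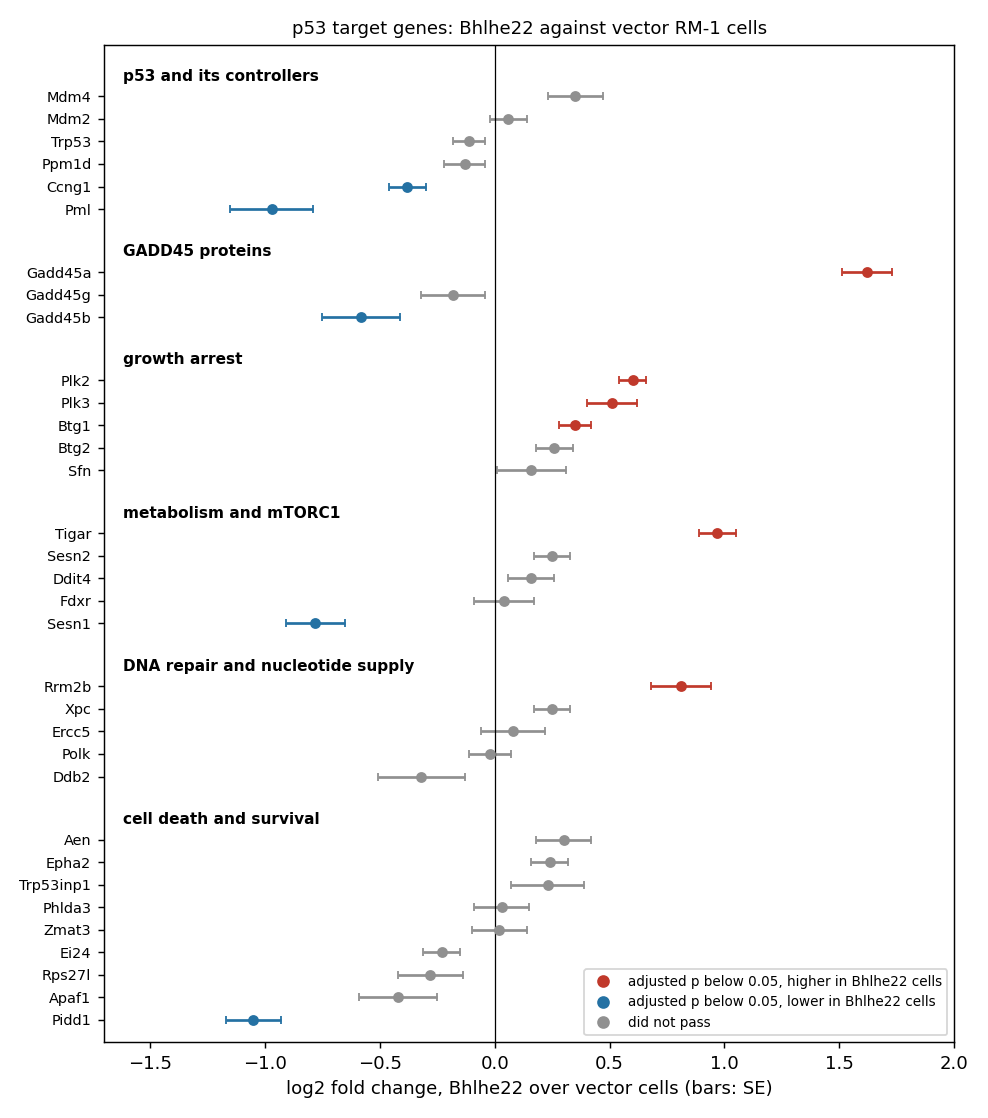
Log2 fold change of the 33 genes, Bhlhe22 over vector cells, grouped by role, with the SE of the edgeR fit as bars and colour for genes past an adjusted p of 0.05. The GADD45 genes and the metabolic genes each hold 1 called higher and 1 called lower gene, and Gadd45a at 1.62 and Pidd1 at -1.05 are the ends of the range.

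The counts depended on single libraries. Without Bhlhe22 replicate 1, 10 of the 33 genes were called higher and 9 lower, with Mdm4, Sesn2, Epha2 and Trp53inp1 added to the higher genes and Apaf1, Ei24, Rps27l and Trp53 to the lower ones. The calls over all genes grew with it, to 2345 higher and 2337 lower, against 1520 and 1361 with all 6 libraries. Without Bhlhe22 replicate 2 these were 908 and 803, and without vector replicate 1, 2 or 3 they were 715 and 633, 781 and 677, and 794 and 686. Without vector replicate 1 or vector replicate 2, 4 genes were higher and 3 lower, and without vector replicate 3, 4 were higher and 2 lower. Gadd45a, Tigar, Rrm2b, Plk2, Sesn1 and Pidd1 were called in the full fit and in each of the 6 fits that left out a library.

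**Figure D2:**
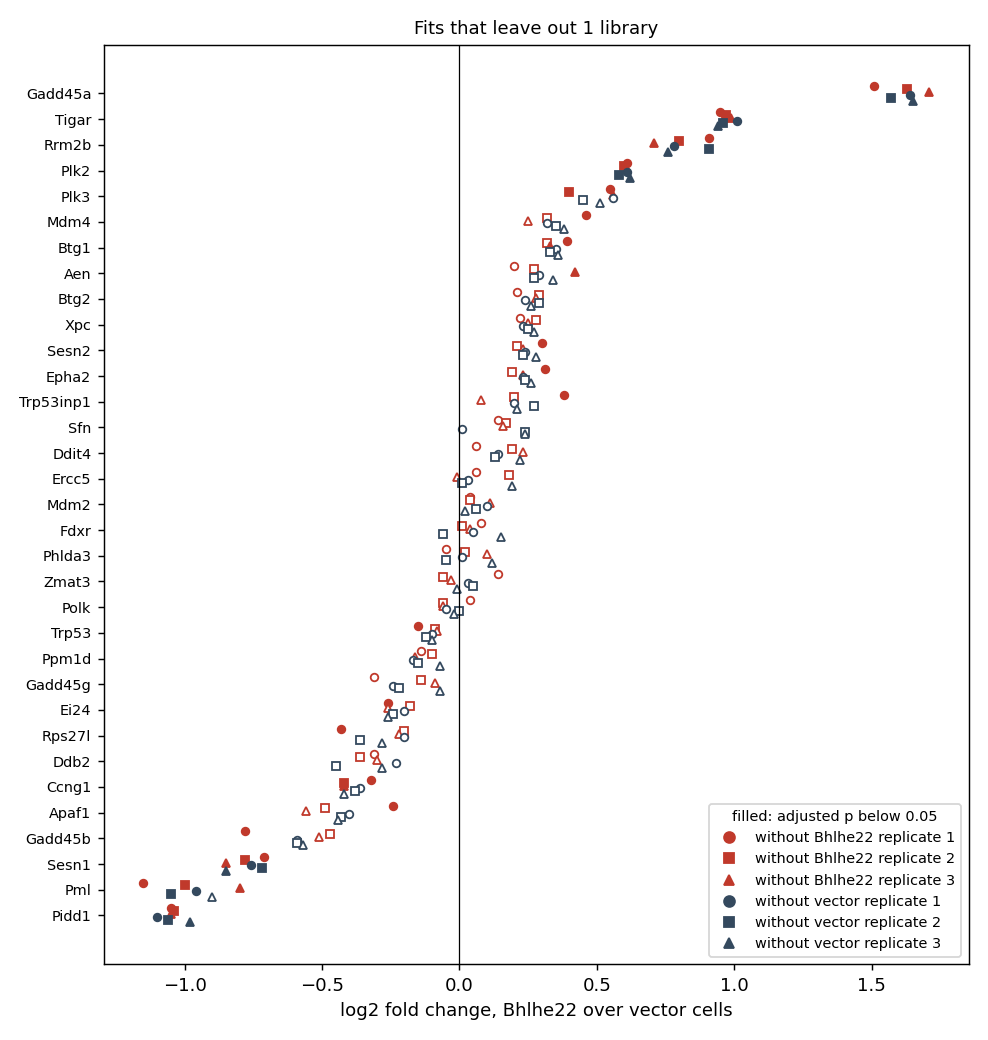
Log2 fold change of each of the 33 genes, Bhlhe22 over vector cells, in the 6 fits that leave out 1 library, with filled marks for an adjusted p below 0.05. Gadd45a stays between 1.51 and 1.71 and Pidd1 between -1.10 and -0.98, while genes in the middle gain a filled mark mainly without Bhlhe22 replicate 1.

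Promoter sequences are shown for the genes on which the results turn, since Gadd45a changed more than any other of the 33 and p53 acts on its targets through elements in their DNA. The RefSeq promoter table (GRCm38.p6, windows of 300 bases around each start) held 28 of the 33 genes, without Rrm2b, Zmat3, Xpc, Ddb2 and Trp53inp1. The 200 bases upstream of the deposited Gadd45a gene, at chr6:67037458-67037657 on the minus strand, are given 5′ to 3′ with capitals for ATTTGCAT on either strand and for CCAAT.
Gadd45a: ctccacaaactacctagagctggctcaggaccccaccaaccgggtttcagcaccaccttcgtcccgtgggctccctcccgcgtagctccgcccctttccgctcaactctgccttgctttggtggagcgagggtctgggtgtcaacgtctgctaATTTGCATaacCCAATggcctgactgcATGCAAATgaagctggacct
In human GADD45A, octamer and CCAAT elements near the start are known to mediate induction that does not need p53, and the best known p53 element lies in an intron, outside this window. ATTTGCAT on either strand was found in 2 of the 28 genes, Gadd45a and Gadd45g, and in 1.97% of 27025 genes in the table. CCAAT was found in 18 of the 28 genes and in 41.1% of all genes. These elements and those below were searched on both strands. The E-box CANNTG, the kind of element that basic helix-loop-helix proteins bind, was found in 18 of the 28 genes and in 75% of all genes. The match in Gadd45a overlaps its ATGCAAAT.

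The p53 consensus decamer, searched on both strands, was found in 11 of the 28 genes, against 9.55% of all genes in the table. Among called genes these were Gadd45a, which rose, and Ccng1, Pml and Sesn1, which fell. Trp53 and Mdm2, which did not pass the test, also held one. Single decamers were searched, not the pair of decamers that makes up a full p53 element. The genes were picked as p53 targets and partners, so their share is not a result of these expression data. Each line gives 30 bases with the decamer in capitals, on the gene's own strand.
Gadd45a, chr6:67037428-67037457, minus strand, at the start of the deposited gene: ggttggctgaGGGCTAGCCCcatatctccg
Ccng1, chr11:40755452-40755481, minus strand: agacctgcccGGGCAAGCCTtggcactgaa
Pml, chr9:58249911-58249940, minus strand: cccgcatgccGGGCTTGTTTacttgcttgt
Sesn1, chr10:41887256-41887285, plus strand, at a start inside the gene: cttggccttcAAGCTTGTTTttgctggcct
Mdm2, chr10:117710925-117710954, minus strand: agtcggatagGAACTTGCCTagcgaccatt
Trp53, chr11:69580274-69580303, plus strand: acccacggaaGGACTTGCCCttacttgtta
The cyclic AMP and ATF element TGACGTCA was found in 4 of the 28 genes, Plk2, Btg2, Epha2 and Ppm1d, against 2.03% of all genes, and TGATGNAA, which holds the core of the CHOP and ATF4 element, in Gadd45g, Polk and Sfn, or 3 of the 28, against 4.51% of all genes. The match in Ppm1d, which did not pass at a log2 fold change of -0.13, is not printed. The matches in Plk2, which rose (0.60), and in Btg2 and Epha2, which did not pass (0.26 and 0.24), are given with the element in capitals.
Plk2, chr13:110394972-110395001, plus strand: gcgctcgccgTGACGTCAcgaggccccgcc
Btg2, chr1:134079302-134079331, minus strand: ttcccaataaTGACGTCAgtgagcgatgac
Epha2, chr4:141301178-141301207, plus strand: gtggtttcggTGACGTCAgcgcagggcatg
The elements were chosen with the results known. A match describes the letters of the window and does not show binding.

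Among p53 and its 5 controllers, none was called higher and 2 were called lower in Bhlhe22 cells, or 33.3% of the 6, against 9.28% of all genes. At an unadjusted p below 0.05, 1 was higher and 2 were lower, and DESeq2 and limma-voom each called 0 higher and 2 lower. Over all genes DESeq2 called 1749 higher and 1624 lower, and limma-voom 1500 and 1401. No share over all genes was taken at the unadjusted p, so counts at it are not a result about the genes counted. Trp53, which encodes p53 itself (chromosome 11, 69580359 to 69591873, GRCm38), was at 365, 342 and 332 CPM in Bhlhe22 cells and 378, 365 and 375 CPM in vector cells. The highest Bhlhe22 library reached the lowest vector library, and the log2 fold change was -0.11 ± 0.07 (SE), with an adjusted p of 0.318. Without Bhlhe22 replicate 1 it was -0.15 with an adjusted p of 0.027.

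Mdm2, the ubiquitin ligase that degrades p53 and is itself a p53 target, was at 98.7, 99.4 and 89.6 CPM in Bhlhe22 cells and 97.1, 91.6 and 86.6 CPM in vector cells. The groups overlapped, and the log2 fold change was 0.06 ± 0.08 with an adjusted p of 0.622. Mdm4, which binds p53 and blocks its transactivation, was at 93.5, 119 and 128 CPM in Bhlhe22 cells and 85.7, 88.4 and 92.6 CPM in vector cells. The groups did not overlap, but Bhlhe22 replicate 1 lay near the vector libraries. The log2 fold change was 0.35 ± 0.12 with an adjusted p of 0.081, and 0.46 with an adjusted p of 9.2e-04 without that library. Its merged exons span 14798 bases, so it is among the long genes that were low in Bhlhe22 replicate 1. Ppm1d, the phosphatase Wip1 that reverses damage signalling to p53, had a log2 fold change of -0.13 ± 0.09 with an adjusted p of 0.365, and its groups overlapped.

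Pml, the organiser of nuclear bodies that hold p53 and its modifying enzymes (chromosome 9, 58218076 to 58249786), was at 72.1, 61.6 and 44.1 CPM in Bhlhe22 cells and 119, 102 and 127 CPM in vector cells. Every Bhlhe22 library lay below every vector library, and Bhlhe22 replicate 3 was the lowest. It fell by 0.97 on the log2 scale (SE 0.18), to 0.510 times the vector level, with an adjusted p of 0.011, and without vector replicate 3 the adjusted p was 0.0501. Ccng1, which encodes cyclin G1, a p53 target that recruits a phosphatase to Mdm2 (chromosome 11, 40748552 to 40755311), was at 161, 188 and 188 CPM in Bhlhe22 cells and 242, 237 and 222 CPM in vector cells. The groups did not overlap. The log2 fold change was -0.38 ± 0.08 with an adjusted p of 0.019, and the call ended without vector replicate 1, 2 or 3, at 0.089, 0.079 and 0.052.

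The 3 GADD45 genes, small stress proteins that bind PCNA, cyclin-dependent kinase 1 and the kinase Map3k4, differed among themselves: Gadd45a rose, Gadd45b was called lower and Gadd45g did not pass, so 33.3% were called in each direction, against 10.4% higher and 9.28% lower over all genes. Gadd45a (chromosome 6, 67035096 to 67037457) was at 203, 177 and 154 CPM in Bhlhe22 cells and 59.7, 53.9 and 60.0 CPM in vector cells. The lowest Bhlhe22 library was more than 2-fold above the highest vector library. It was 3.07-fold higher, a log2 fold change of 1.62 ± 0.11 with an adjusted p of 2.3e-04. On the other strand, E230016M11Rik shares 19.1% of the exon length of Gadd45a, but it held 11, 20 and 10 counts in Bhlhe22 cells and 20, 19 and 19 counts in vector cells, against 3090, 3427 and 3882 counts of Gadd45a in Bhlhe22 cells and 1079, 1112 and 1283 in vector cells.

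Gadd45b (chromosome 10, 80930073 to 80932204) was at 8.93, 5.88 and 6.41 CPM in Bhlhe22 cells and 10.5, 10.5 and 10.7 CPM in vector cells, from 136, 114 and 161 counts in Bhlhe22 cells and 189, 216 and 228 counts in vector cells. The groups did not overlap, and Bhlhe22 replicate 1 lay closest to the vector libraries. The merged exons of Gadd45b span 1589 bases, so it is a short gene that was high in that library within its group. The log2 fold change was -0.58 ± 0.17 with an adjusted p of 0.0499, at the edge of the threshold. Without Bhlhe22 replicate 1 it was -0.78 with an adjusted p of 0.0017. Without any other single library the adjusted p was 0.122 to 0.138, ending the call, and it also ended with upper quartile scaling (0.053), with no filter (0.054) and without robust estimation (0.052). Gadd45g (chromosome 13, 51846678 to 51848468) was at 25.9, 21.1 and 19.6 CPM in Bhlhe22 cells and 22.9, 23.6 and 28.6 CPM in vector cells. The groups overlapped, and the log2 fold change was -0.18 ± 0.14 with an adjusted p of 0.423.

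Levels of different genes were compared as CPM per kilobase of merged exons. The 3 GADD45 genes together reached 143, 122 and 108 CPM per kb in Bhlhe22 cells and 59.9, 57.3 and 65.1 CPM per kb in vector cells. Gadd45a made up 80.6%, 82.2% and 80.8% of that sum in Bhlhe22 cells and 56.5%, 53.4% and 52.2% in vector cells. Gadd45g made up 15.5%, 14.8% and 15.4% in Bhlhe22 cells and 32.5%, 35.1% and 37.5% in vector cells. The remainder was Gadd45b, at most 3.94% in Bhlhe22 cells and at most 11.5% in vector cells. The shares depend on the lengths used: on the authors' deposited FPKM, Gadd45a made up 74.2%, 76.2% and 74.5% in Bhlhe22 cells and 47.3%, 44.1% and 43.1% in vector cells.

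**Figure D3:**
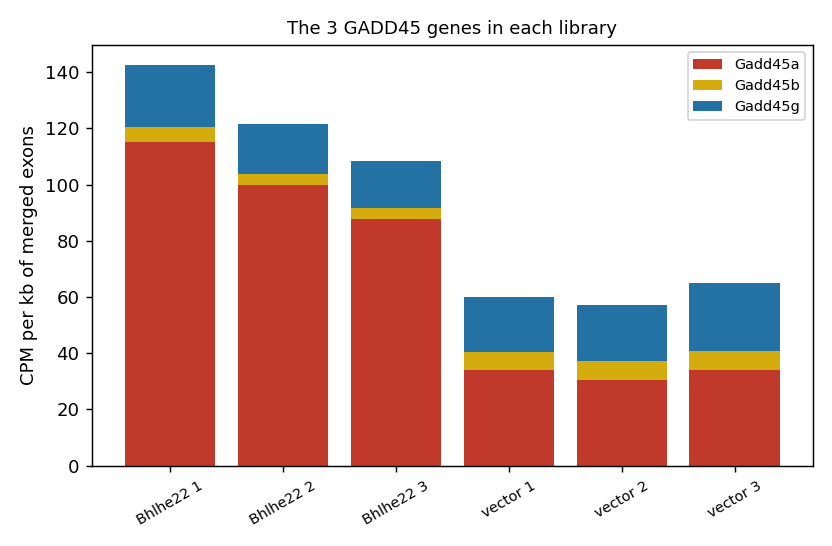
Level of Gadd45a, Gadd45b and Gadd45g in each library, stacked, in CPM per kilobase of merged exons, with Bhlhe22 libraries on the left. The stacks reach 108 to 143 in Bhlhe22 cells and 57.3 to 65.1 in vector cells, and the Gadd45a part accounts for the higher stacks.

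Of 5 growth arrest genes, 3 rose in Bhlhe22 cells, or 60%, against 10.4% of all genes, and none was called lower (0 also at an unadjusted p below 0.05 and by DESeq2 and limma-voom). Plk2, a polo-like kinase that acts in centriole duplication and replication checkpoints (chromosome 13, 110395046 to 110400844), was at 151, 155 and 153 CPM in Bhlhe22 cells and 102, 97.1 and 103 CPM in vector cells. The libraries of each group lay within a few CPM of each other and the groups were far apart. It was 1.52-fold higher, a log2 fold change of 0.60 ± 0.06 with an adjusted p of 0.001. Plk3, a stress-activated kinase of the same family (chromosome 4, 117128655 to 117133963), was at 111, 137 and 110 CPM in Bhlhe22 cells and 90.5, 77.2 and 83.9 CPM in vector cells. There was no overlap between the groups, and Bhlhe22 replicate 2 was the highest. The log2 fold change was 0.51 ± 0.11 with an adjusted p of 0.019, and the call ended without vector replicate 1, 2 or 3, at 0.052, 0.083 and 0.078.

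Btg1, an antiproliferative cofactor of mRNA deadenylation (chromosome 10, 96617006 to 96622809), was at 215, 243 and 238 CPM in Bhlhe22 cells and 185, 177 and 185 CPM in vector cells. All Bhlhe22 libraries lay above all vector libraries. Its log2 fold change was 0.35 ± 0.07 with an adjusted p of 0.017, and the call ended without Bhlhe22 replicate 2 (0.066) and without vector replicate 1, 2 or 3 (0.075, 0.08 and 0.065). Its relative Btg2, the better known p53 target of the pair, was at 32.4, 29.3 and 29.6 CPM in Bhlhe22 cells and 24.6, 26.1 and 25.2 CPM in vector cells. These groups did not overlap either, but the adjusted p was 0.064 at a log2 fold change of 0.26 ± 0.08. Sfn, which encodes 14-3-3 sigma, a protein that holds mitotic kinases in the cytoplasm, was at 12.9, 12.5 and 12.7 CPM in Bhlhe22 cells and 8.91, 12.6 and 12.6 CPM in vector cells. Only vector replicate 1 was low, and the adjusted p was 0.511.

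**Figure D4:**
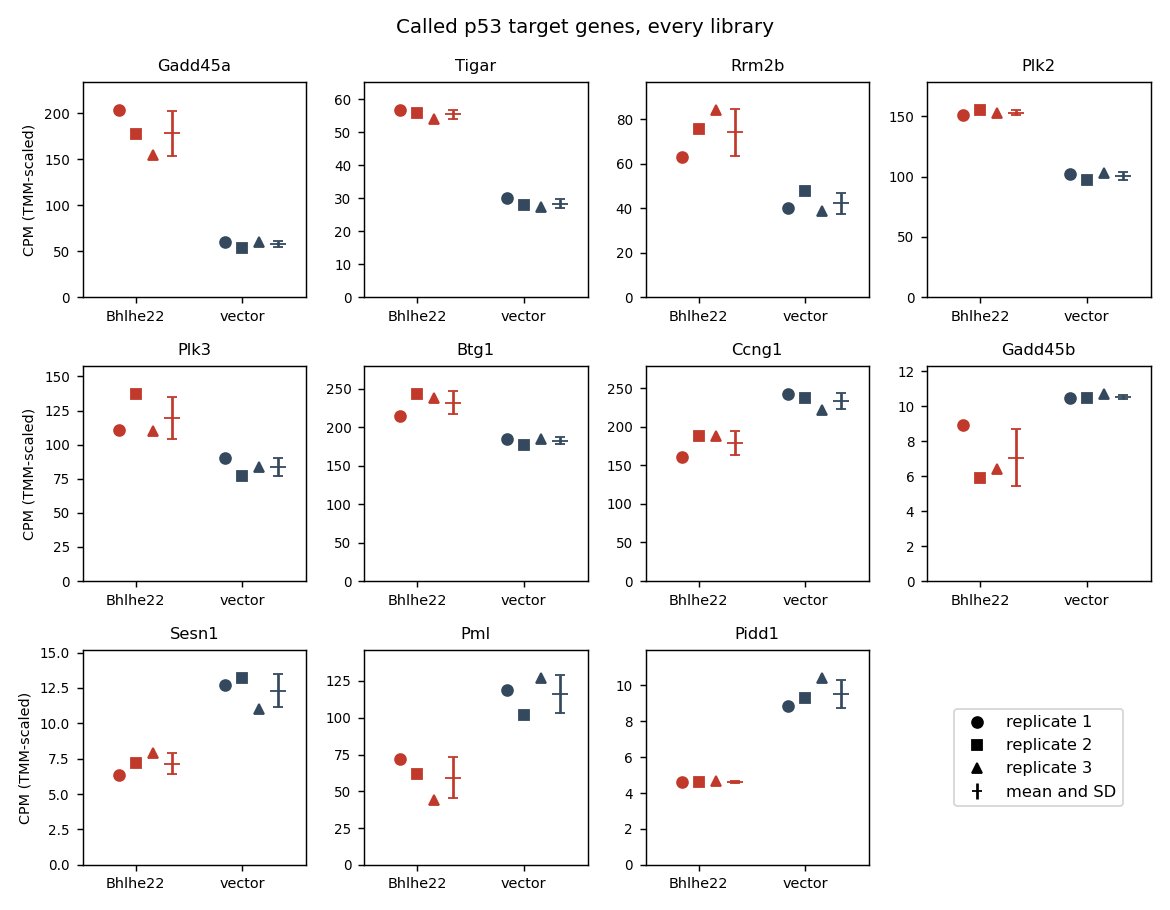
CPM of the 11 called genes in every library, Bhlhe22 cells left of vector cells in each panel, with mean and SD of 3 libraries. In each panel the groups do not overlap. Gadd45b has its highest Bhlhe22 library at 8.93 CPM, close to the vector libraries at 10.5 to 10.7 CPM.

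Of 5 metabolic and mTORC1 genes, Tigar rose and Sesn1 fell, or 20% in each direction, against 10.4% and 9.28% of all genes. Tigar, a fructose bisphosphatase that slows glycolysis and favours NADPH production (chromosome 6, 127085116 to 127109557), was at 56.6, 55.7 and 54.0 CPM in Bhlhe22 cells and 29.9, 27.8 and 27.2 CPM in vector cells. Libraries within a group differed by less than 3 CPM. It was 1.96-fold higher, a log2 fold change of 0.97 ± 0.08 with an adjusted p of 4.1e-04. Sesn1, a sestrin that restrains mTORC1 through the GATOR complexes (chromosome 10, 41809935 to 41908424), was at 6.37, 7.22 and 7.88 CPM in Bhlhe22 cells and 12.7, 13.2 and 11 CPM in vector cells. No library of 1 group reached the other group, and it fell by 0.78 on the log2 scale (SE 0.13) with an adjusted p of 0.0072.

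Sesn2, the sestrin known both as a p53 and as an ATF4 target, was at 211, 244 and 238 CPM in Bhlhe22 cells and 191, 190 and 202 CPM in vector cells. The ranges of the groups were apart, and the log2 fold change was 0.25 ± 0.08 with an adjusted p of 0.065. It passed without Bhlhe22 replicate 1 (0.0025), with DESeq2 (0.047) and when protein-coding genes alone were tested (0.047). Per kilobase, Sesn2 made up 93.9%, 93.1% and 95.7% of the summed sestrin level in Bhlhe22 cells and 92.8%, 92.5% and 93.9% in vector cells, so Sesn1, which fell, was a small part of it: 2.47%, 2.4% and 2.76% in Bhlhe22 cells and 5.39%, 5.63% and 4.45% in vector cells.

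Ddit4, or REDD1, which lowers mTORC1 activity, was at 333, 284 and 264 CPM in Bhlhe22 cells and 256, 249 and 283 CPM in vector cells. The groups overlapped, with a log2 fold change of 0.16 ± 0.10 and an adjusted p of 0.318. Fdxr, the mitochondrial ferredoxin reductase, had a log2 fold change of 0.04 ± 0.13 with an adjusted p of 0.849, and its groups overlapped.

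Of 5 genes of DNA repair and nucleotide supply, Rrm2b rose, or 20%, against 10.4% of all genes, and none was called lower (0 also at an unadjusted p below 0.05 and by DESeq2 and limma-voom). Rrm2b, the p53-inducible small subunit of ribonucleotide reductase that supplies deoxynucleotides outside S phase (chromosome 15, 37923952 to 37961318), was at 62.9, 75.7 and 84.1 CPM in Bhlhe22 cells and 40.2, 47.7 and 38.9 CPM in vector cells. The group ranges stayed apart, and Bhlhe22 replicate 1 was the lowest of its group. It was 1.76-fold higher, a log2 fold change of 0.81 ± 0.13 with an adjusted p of 0.0063. On the other strand Gm49085 shares 8.04% of its exon length and had 4 to 25 counts per library, against 726 to 2115 of Rrm2b. Rrm2, the small subunit of S phase, and Rrm1, the large subunit that pairs with either small subunit, went the other way. Rrm2 was at 330, 317 and 306 CPM in Bhlhe22 cells and 660, 676 and 669 CPM in vector cells, a log2 fold change of -1.07 ± 0.06 with an adjusted p of 1.4e-04. Rrm1, the large subunit, was at 194, 203 and 199 CPM in Bhlhe22 cells and 355, 369 and 353 CPM in vector cells, a log2 fold change of -0.85 ± 0.06 with an adjusted p of 2.8e-04. Within each of these genes no library of either group came near the other group.

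Xpc, the damage sensor of nucleotide excision repair, was at 25.1, 23.1 and 24.1 CPM in Bhlhe22 cells and 19.8, 20.1 and 20.8 CPM in vector cells. Again the groups were apart, but the log2 fold change of 0.25 ± 0.08 had an adjusted p of 0.073. Ddb2, the p53-induced sensor of ultraviolet damage, was at 1.97, 2.17 and 1.99 CPM in Bhlhe22 cells and 2.88, 2.09 and 2.71 CPM in vector cells. Its 30 to 58 counts per library limit what can be seen, and 23.8% of its exon length is shared with Acp2 on the other strand, which had 647 to 1126 counts per library. Its log2 fold change was -0.32 ± 0.19 with an adjusted p of 0.288. Polk, a translesion polymerase, and Ercc5, the endonuclease XPG, had log2 fold changes of -0.02 and 0.08 with adjusted p values of 0.901 and 0.755.

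Of 9 cell death and survival genes, Pidd1 fell and none was called higher. The 11.1% called lower is near the 9.28% of all genes. At an unadjusted p below 0.05, 2 were higher and 3 lower, and DESeq2 and limma-voom each called 0 higher and 1 lower. Over all genes DESeq2 called 1749 higher and 1624 lower, and limma-voom 1500 and 1401. No share over all genes was taken at the unadjusted p, so the 2 and 3 are not a result about these genes. Pidd1, the scaffold of the PIDDosome that activates caspase-2 (chromosome 7, 141438113 to 141444025), was at 4.59, 4.59 and 4.65 CPM in Bhlhe22 cells and 8.86, 9.31 and 10.4 CPM in vector cells. These rest on 70, 89 and 117 counts in Bhlhe22 cells and 160, 192 and 223 counts in vector cells, and the Bhlhe22 libraries lay almost on top of each other. It fell to 0.484 times the vector level, a log2 fold change of -1.05 ± 0.12 with an adjusted p of 0.0015.

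Apaf1, which assembles the apoptosome, was at 25.1, 38.2 and 41.1 CPM in Bhlhe22 cells and 48.4, 46.3 and 45.5 CPM in vector cells. Neither group reached into the other, but Bhlhe22 replicate 1 was far below the rest, and the merged exons of Apaf1 span 9028 bases. Its log2 fold change was -0.42 ± 0.17 with an adjusted p of 0.140, and -0.24 with an adjusted p of 0.034 without that library. Epha2, a receptor tyrosine kinase, was at 255, 304 and 290 CPM in Bhlhe22 cells and 235, 237 and 245 CPM in vector cells. There was no overlap between the groups, and the log2 fold change was 0.24 ± 0.08 with an adjusted p of 0.079, or 0.31 with an adjusted p of 0.0017 without Bhlhe22 replicate 1.

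Trp53inp1, an autophagy and cell death cofactor, was at 25.8, 35.0 and 40.2 CPM in Bhlhe22 cells and 27.8, 30.4 and 28.1 CPM in vector cells. Bhlhe22 replicate 1 lay below all vector libraries and the others above them, and the adjusted p was 0.359, or 0.015 at a log2 fold change of 0.38 without that library. Ei24, an endoplasmic reticulum membrane protein, had a log2 fold change of -0.23 ± 0.08 with an adjusted p of 0.088, and of -0.26 with an adjusted p of 0.031 without Bhlhe22 replicate 1. Aen, an apoptosis-enhancing nuclease, had a log2 fold change of 0.30 ± 0.12 with an adjusted p of 0.139, and of 0.42 with an adjusted p of 0.033 without Bhlhe22 replicate 3. Calls of these genes thus appeared when 1 library was left out.

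Rps27l, a ribosomal protein relative that is a p53 target, was at 142, 107 and 110 CPM in Bhlhe22 cells and 162, 129 and 145 CPM in vector cells. The groups overlapped through Bhlhe22 replicate 1, and the adjusted p was 0.198, or 0.014 at a log2 fold change of -0.43 without that library. The merged exons of Rps27l span 816 bases, so it is a short gene that was high in Bhlhe22 replicate 1. Its reads may be shared with the near copies Rps27 and Rps27rt, so its level is uncertain: Rps27rt held 9009 to 13061 counts per library and Rps27 77 to 120, against 2076 to 3105 of Rps27l. Phlda3, which blocks Akt at the membrane, and Zmat3, an RNA-binding p53 effector, had log2 fold changes of 0.03 and 0.02 with adjusted p values of 0.908 and 0.929.

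Per kilobase of merged exons, the 33 genes spanned 0.935 to 178 CPM per kb in vector cells: 6 lay above 50, 9 between 10 and 50, and 18 under 10. Ddit4 averaged 167 ± 20.2 CPM per kb in Bhlhe22 cells and 150 ± 10.2 in vector cells (SD, n = 3 each), and Rps27l 147 ± 24.2 in Bhlhe22 cells and 178 ± 20.2 in vector cells. Ddit4 lay above Rps27l in each Bhlhe22 library and below it in each vector library, by less than the spread between libraries in the Bhlhe22 means. Gadd45a averaged 101 ± 13.7 CPM per kb in Bhlhe22 cells and 32.8 ± 1.94 in vector cells. It thus stood at place 3 of the 33 genes in Bhlhe22 cells, against place 9 in vector cells, where Plk3 at 33.1 ± 2.62 and Btg1 at 34.6 ± 0.865 were its neighbours within the spread. Trp53 averaged 85.6 ± 4.21 CPM per kb in Bhlhe22 cells and 92.1 ± 1.79 in vector cells. At the low end were Sesn1 with 1.8 ± 0.19 in Bhlhe22 cells and 3.09 ± 0.295 in vector cells, Pidd1 with 1.02 ± 0.00793 in Bhlhe22 cells and 2.1 ± 0.178 in vector cells, and Ddb2 with 0.746 ± 0.0398 in Bhlhe22 cells and 0.935 ± 0.153 in vector cells.

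**Figure D5:**
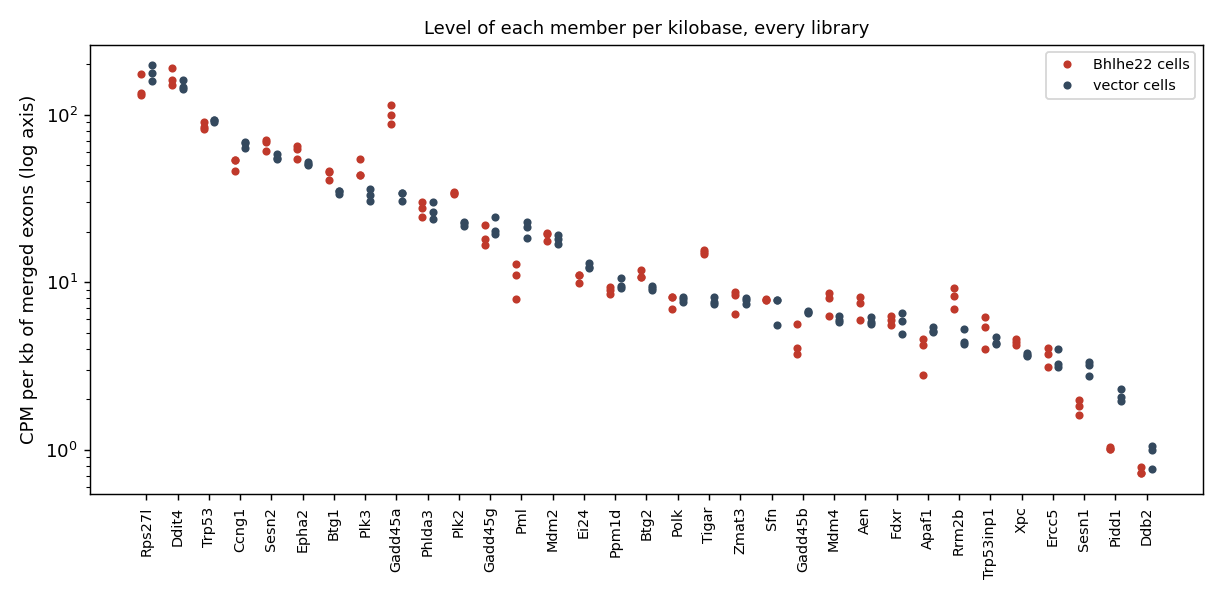
Level of each of the 33 genes in every library, in CPM per kilobase of merged exons on a log axis, ordered by the mean of vector cells, with Bhlhe22 libraries left of vector libraries. Gadd45a at 87.6 to 115 in Bhlhe22 cells stands out from its neighbours in the order, and the lowest gene is Ddb2.

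Other genes of the pathway were read from lists drawn from textbook knowledge. The lists were chosen with earlier results of these data known, so their shares describe the genes listed and are not independent of these data. Of 26 further p53 targets, 3 were higher and 5 lower in Bhlhe22 cells, with a median log2 fold change of 0.02. These are 11.5% higher, near the 10.4% of all genes, and 19.2% lower, against 9.28% of all genes, and the shares of the lists below are to be read against these same values. Cdkn1a, the CDK inhibitor p21 and the classic p53 target, was at 451, 439 and 391 CPM in Bhlhe22 cells and 122, 361 and 379 CPM in vector cells. Its groups did not overlap, but vector replicate 1 was far below the rest. Its log2 fold change was 0.57 ± 0.38 with an adjusted p of 0.351, and without vector replicate 1 it was 0.21 with an adjusted p of 0.250.

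Gdf15, a stress cytokine raised by both p53 and CHOP, was at 210, 217 and 223 CPM in Bhlhe22 cells and 147, 134 and 150 CPM in vector cells, a log2 fold change of 0.59 ± 0.07 with an adjusted p of 0.002. The groups were well apart, and the call held in each fit that left out a library. Bbc3, the BH3-only protein PUMA, had a log2 fold change of 0.46 ± 0.11 with an adjusted p of 0.03, and its call ended without Bhlhe22 replicate 2 or 3 (0.082 and 0.063) and without vector replicate 1 or 2 (0.121 and 0.117). Steap3, a ferrireductase, fell by 1.07 on the log2 scale (SE 0.16, adjusted p 0.0043) and Thbs1, the angiogenesis inhibitor thrombospondin-1, by 0.76 (SE 0.13, adjusted p 0.0082), and both calls held in each fit that left out a library. Tap1, a peptide transporter of antigen presentation, fell by 0.35 (adjusted p 0.014) and Tnfrsf10b, the TRAIL death receptor, by 0.39 (adjusted p 0.028). The Tap1 call ended without Bhlhe22 replicate 2 (0.063), vector replicate 1 (0.066) or vector replicate 2 (0.07), and the Tnfrsf10b call without Bhlhe22 replicate 2 (0.061) or vector replicate 1, 2 or 3 (0.103, 0.097 and 0.094). The other called genes, named after their values were seen, were Cd82, higher at an adjusted p of 0.049, and Ephx1, lower at 0.03, and each kept its call in 1 of the 6 fits that left out a library. Without Bhlhe22 replicate 2, 1 gene of the list was higher and 2 were lower. Without vector replicate 1 the counts were again 1 and 2, without Bhlhe22 replicate 3 1 was higher, and without vector replicate 2 or 3, 2 and 3 were lower. Bax, Pmaip1 and Fas, which act in cell death, had log2 fold changes of 0.10, 0.66 and 0.19 with adjusted p values of 0.640, 0.171 and 0.758.

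Of 22 regulators and relatives of p53, 20 were tested, 1 was higher (5%) and 2 were lower (10%), with a median log2 fold change of -0.12. Cop1, a ubiquitin ligase for p53 in human cells, was at 61.8, 67.6 and 69.1 CPM in Bhlhe22 cells and 45.9, 45.4 and 48.2 CPM in vector cells, a log2 fold change of 0.51 ± 0.08 with an adjusted p of 0.0053. The call held in each fit that left out a library. Chek1, the checkpoint kinase, fell by 0.44 (adjusted p 0.0098, or 0.054 without vector replicate 1). Usp7, which removes ubiquitin from Mdm2 and p53, fell by 0.25 (adjusted p 0.048), and its call ended without Bhlhe22 replicate 2 (0.141) or vector replicate 1, 2 or 3 (0.131, 0.155 and 0.137) and with no filter (0.108). Atm, Atr and Chek2, the damage kinases upstream of p53, named after their values were seen, did not pass, with log2 fold changes of -0.67, -0.25 and -0.33 and adjusted p values of 0.124, 0.321 and 0.079. Their groups did not overlap. With 1 library left out the adjusted p was 0.0067 to 0.263 for Atm, 0.192 to 0.481 for Atr and 0.041 to 0.242 for Chek2. Atm and Chek2 each passed in 1 of these fits and Atr in 0. Trp63 did not pass the filter, and Trp73 had 0 counts in all 6 libraries. Without Bhlhe22 replicate 1, 4 genes of the list were higher and 5 lower, without Bhlhe22 replicate 2 or vector replicate 2, 1 was lower, and without vector replicate 1 none was lower by edgeR.

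Of 12 genes of the ATF4 and CHOP stress response, which shares targets with the 33 genes, 10 were higher (83.3%) and 0 lower (0 also at an unadjusted p below 0.05 and by DESeq2 and limma-voom), with a median log2 fold change of 0.57. Without a single library 7 to 11 were higher. Ppp1r15a, a phosphatase subunit also called GADD34 that is outside the GADD45 family, was at 258, 345 and 268 CPM in Bhlhe22 cells and 36.3, 35.8 and 64.4 CPM in vector cells, a log2 fold change of 2.67 ± 0.26 with an adjusted p of 8.9e-04. Ddit3, which encodes CHOP, was at 160, 130 and 114 CPM in Bhlhe22 cells and 53.5, 54.8 and 57.2 CPM in vector cells, a log2 fold change of 1.29 ± 0.13 with an adjusted p of 8.8e-04. In both genes every Bhlhe22 library lay above every vector library. Atf3 rose by 1.69 (adjusted p 1.7e-04) and Asns, asparagine synthetase, by 0.82 (adjusted p 0.0013).

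Of 12 cell cycle genes that p53 is known to lower through p21 and the DREAM complex, 10 were lower (83.3%) and 0 higher (0 also at an unadjusted p below 0.05 and by DESeq2 and limma-voom), with a median log2 fold change of -0.46. Without vector replicate 1, 6 were lower, and likewise 6 without vector replicate 3. Ccna2, cyclin A2, was at 153, 145 and 146 CPM in Bhlhe22 cells and 233, 232 and 247 CPM in vector cells, a log2 fold change of -0.68 ± 0.06 with an adjusted p of 7.5e-04. Kif23 fell by 0.55, Bub1 by 0.57 and Plk1 by 0.51, with adjusted p values of 0.0023, 0.0026 and 0.0065. Whether p53 or p21 had a part in these changes was not tested.

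Of 12 GADD45 partners and p38 pathway genes, 11 were tested, 1 was higher (9.09%) and 3 were lower (27.3%). Pcna, the sliding clamp that GADD45 proteins bind, was at 119, 132 and 126 CPM in Bhlhe22 cells and 222, 191 and 227 CPM in vector cells, a log2 fold change of -0.76 ± 0.09 with an adjusted p of 0.0016. All Bhlhe22 libraries lay below all vector libraries. Map2k6, a kinase that activates p38, rose by 0.38 (adjusted p 0.022), and Map2k3, its close relative, fell by 0.28 (adjusted p 0.026). Cdk1, which is also in the list of cell cycle genes above, fell by 0.46 (adjusted p 0.028). The Map2k6 call ended without Bhlhe22 replicate 3 or any vector library (0.063 to 0.09), the Map2k3 call when any library but Bhlhe22 replicate 1 was left out and with no filter (0.06), and the Cdk1 call when any library but Bhlhe22 replicate 1 and vector replicate 2 was left out. Without Bhlhe22 replicate 1, 2 of the list were higher, and without Bhlhe22 replicate 2 or 3 or vector replicate 1 or 3, 1 was lower.

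Of 20 further nucleotide excision repair genes, 2 were higher (10%) and 5 lower (25%), with a median log2 fold change of -0.04. Rpa1 fell by 1.36, Lig1 by 1.04 and Rpa2 by 1.01 on the log2 scale, with adjusted p values of 6.1e-05, 2.3e-04 and 0.0011, and these genes also serve in DNA replication. Ddb1, the partner of Ddb2, fell by 0.35 with an adjusted p of 0.016, and its call ended without vector replicate 1, 2 or 3 (0.071, 0.072 and 0.07). Without vector replicate 1 or 3, 3 genes of the list were lower, and without Bhlhe22 replicate 2 or vector replicate 2 or 3 none was higher by edgeR, and without Bhlhe22 replicate 3 or vector replicate 1, 1 was. Of 10 apoptosome and PIDDosome partners, 1 was higher (10%) and 2 were lower (20%). Diablo, an inhibitor of caspase inhibitors, rose by 0.38 (adjusted p 0.045) and Casp6, an effector caspase, fell by 0.38 (adjusted p 0.037), and both calls ended when any library but Bhlhe22 replicate 1 was left out. The Diablo call also ended with upper quartile scaling (0.056), library size alone (0.051) or log2 FPKM (0.068), and the Casp6 call with no filter (0.062).

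Of 29 genes listed as paralogs of the 33 genes, 21 were tested, and 2 were higher (9.52%) and 9 lower (42.9%). The median log2 fold change was -0.13. Btg4 was at 2.36, 1.7 and 1.99 CPM in Bhlhe22 cells and 0, 0.0485 and 0.187 CPM in vector cells, so its level in vector cells rests on a few counts, and its adjusted p was 0.002. Epha4, a relative of Epha2, fell by 1.31 on the log2 scale (SE 0.15) with an adjusted p of 0.0014. Rrm2 and Rrm1, given above beside Rrm2b, had the smallest adjusted p values of the list. Of these, Rrm1 is the large subunit of the enzyme and not a paralog of Rrm2b, but it counts among the 9 lower genes. Plk1, given above with the cell cycle genes, is also among the lower paralogs, so these lists overlap. Without Bhlhe22 replicate 1, 4 paralogs were higher, and without Bhlhe22 replicate 2 or any vector library, 1 was higher.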

How the data were processed

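RNA-seq of 6 RM-1 samples was analysed from the table of the whole series. The authors deposited raw counts per gene and FPKM values, and the tools and build named per the submitters' processing notes are CASAVA 1.8, HISAT2 2.1.0, StringTie 1.3.4b, edgeR and GRCm38. The roles of these tools, the annotation release and strandedness are not stated there. The gene length that the authors used for FPKM was recovered by dividing counts by FPKM, and it equalled the sum of all distinct exons in GENCODE M21, overlaps counted repeatedly, within 1 base in 32 of the 33 genes and in 97.5% of 10426 genes. Deposited FPKM therefore understates genes with many overlapping exons (median length ratio to merged exons 1.37, for Gadd45a 2.35), and levels between genes are given as CPM per kilobase of merged exons.

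Bhlhe22 and vector cells (3 libraries each, 15464709 to 25129552 counts) were compared with edgeR 4.0.16 in R 4.3.3 (TMM scaling, filterByExpr with minimum count 10 and minimum total count 15, robust quasi-likelihood fit, Benjamini-Hochberg threshold 0.05 over 14663 genes). The model held the group alone. CPM uses the TMM-scaled sizes. Alternatives were scaling by RLE, by upper quartile or by library size, testing without a filter or with at least 1 CPM in 3 libraries, DESeq2 1.42.0, limma-voom (limma 3.58.1), no robust estimation, limma on log2 of FPKM plus a pseudocount of 1, a replicate block, protein-coding genes alone and leaving out each library. Counts were also simulated from the means and dispersions of this comparison (14430 genes tested). The share of changed genes that was recovered was 24.7% at 1.5-fold (97 genes), 77.1% at 2-fold (48 genes) and 94% at 4-fold (50 genes). Far fewer genes were changed in the simulation than the 2881 called here, and it held no deviation of a library with gene length. These shares therefore do not carry over directly to the data.

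The genes and lists were chosen with earlier results of these data known. Named genes are the 33 genes, Bhlhe22, up to 4 called genes with the smallest adjusted p from each list, and Cdkn1a, Bax, Bbc3, Pmaip1, Fas and Tnfrsf10b. Exon overlaps came from GENCODE M21, in which all 33 genes have the coordinates of the deposited table, and promoters from RefSeq (GRCm38.p6). A few genes of the lists are not reported here by name.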

Additional observations from a re-analysis of the deposited data

How the results depend on the processing

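Over all genes, 1520 were higher and 1361 lower, and 715 to 2345 higher and 633 to 2337 lower when 1 library was left out. Of the 33 genes, 6 were higher and 5 lower, 4 to 10 and 2 to 9 with 1 library left out, and 6 to 7 and 4 to 5 under every other alternative run. Among the 33 genes and the others named by rule, none was called in 1 direction by 1 fit and in the other by another. With 1 library left out, the further p53 targets had 1 to 3 higher and 2 to 5 lower, p53 regulators 1 to 4 and 0 to 5, paralogs 1 to 4 and 6 to 9, excision repair genes 0 to 2 and 3 to 7, apoptosome and PIDDosome partners 0 to 2 and 0 to 3, GADD45 partners 0 to 2 and 1 to 3, ATF4 and CHOP genes 7 to 11 and 0, and DREAM genes 0 and 6 to 11. Lower p53 regulators numbered 2 in the fit reported, 1 with no filter and 4 with DESeq2. Higher excision repair genes numbered 2, and 1 on log2 FPKM. Higher apoptosome and PIDDosome partners numbered 1, and 0 with upper quartile scaling, library size alone or log2 FPKM, and the lower ones 2, and 0 with no filter. Higher GADD45 partners numbered 1, and 2 with DESeq2 or protein-coding genes alone. The causes were not tested.

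Deviations from the group mean correlated at 0.0293, 0.0214 and 0.0156 between same-numbered samples and at -0.0784 to 0.0631 between the others. Bhlhe22 replicate 1 correlated best with vector replicate 3 (0.0406). Such small correlations cannot show whether the numbers mark a shared culture or day, and the labels do not say. With the replicate block, 1086 genes were higher and 993 lower, and 6 and 4 of the 33. The block left 1 lower p53 regulator, 1 higher paralog, 1 higher excision repair gene, 0 higher and 0 lower apoptosome and PIDDosome partners and 0 higher GADD45 partners. Under it the calls of Gadd45b (0.065), Bbc3 (0.052), Usp7 (0.093), Casp6 (0.074), Diablo (0.099), Map2k6 (0.062), Map2k3 (0.075) and Vim (0.064) ended, and Pmaip1 gained one (log2 fold change 0.66, adjusted p 0.035).

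With 3 libraries per group, small changes are often missed, and genes such as Ddb2, with 30 to 58 counts per library, allow no firm statement.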
